A study of Saccharomyces cerevisiae with 27 samples.

Results

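The genes described are 41 of those that encode RNA polymerase I and RNA polymerase III of budding yeast. The 41 include initiation factors and the main repressor, and stand among 5656 genes tested on the array. They were taken from a list of names, with no measured value in the rule, and found through the gene annotation of the probe sets. A probe set is the group of short probes that together give 1 value for a transcript. Only probe sets naming 1 gene were used, and the brightest over all arrays was kept where a gene had several. The 41 comprise 7 subunits of polymerase I alone, 10 of polymerase III alone, 2 shared by these enzymes and 4 of those shared by all the nuclear polymerases. The others are 8 initiation factors of polymerase I, 8 of polymerase III, the TATA-binding protein SPT15, which serves all the polymerases, and the repressor MAF1. All 41 were measured and stayed in the test.

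The cells were Saccharomyces cerevisiae X2180-1A, a wild-type laboratory strain, grown in fermentors with air in a buffered minimal medium with glucose and no amino acids. Heat-stressed cultures were moved to 41 °C and sampled at 10, 30, 60, 120, 240 and 360 min. Samples of control cultures, kept at 28 °C, came from 0, 120 and 240 min, when their optical densities (OD600) were 0.5, 0.88 and 1.5. Each of the 9 groups held 3 arrays from 3 biological replicates, 27 arrays in all, and per the design each culture was sampled repeatedly, so groups of 1 condition share cultures. Heat at 10, 30 and 60 min was set against control at 0 min, heat at 120 min against control at 120 min, and heat at 240 and 360 min against control at 240 min. The comparisons that share a control group are therefore not independent of each other, and at 360 min, as at 10, 30 and 60 min, there was no control of the same time.

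Polymerase I transcribes the large ribosomal RNA precursor in the nucleolus, and polymerase III makes 5S ribosomal RNA, the transfer RNAs and a few small RNAs such as that of RNase P. Rrn3, the core factor (Rrn6, Rrn7, Rrn11) and the upstream activating factor (Rrn5, Rrn9, Rrn10, Uaf30 and histones) bring polymerase I to the ribosomal DNA. At polymerase III genes, TFIIIC (Tfc1, Tfc3, Tfc4, Tfc6, Tfc7, Tfc8) binds inside the gene and places TFIIIB (Brf1, Bdp1 and the TATA-binding protein), which recruits the enzyme, while Maf1 represses it when growth conditions worsen. The arrays measured the messenger RNAs that encode these proteins, and neither the proteins nor polymerase activity.

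The values are fluorescence intensities, which the authors deposited on a linear scale. The array medians over the tested genes lay between 442 and 566, a ratio of 1.28, and the arrays were quantile-normalized here before the test. Fold changes are differences of log2(intensity + 115.3), which makes the changes of dim genes look smaller than they are, and are given ± SE. The p-values are from limma, adjusted over all 5656 genes by the Benjamini-Hochberg method, with a call at 0.05. With 3 arrays a group, the number of arrays limits the precision. All 6 heat shock genes used to check the labels were higher in heat at every time, for example SSA4, an Hsp70 chaperone, by 4.62 ± 0.12 at 10 min (adjusted p = 9.10e-20). In whole-culture RNA, fewer cells holding a transcript and less transcript per cell cannot be told apart.

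Probes against non-yeast sequences served as a measure of background. Their mean log2 intensity was 5.56 to 6.21 on the heat arrays at 10 min and 5.15 to 5.71 on the later heat arrays, against 6.05 to 6.35 on the control arrays. The ratio of 3′ to 5′ signal for SRB4, a sign of RNA length, was 2.97 to 3.39 at 10 min and 3.44 to 5.62 later in heat, against 1.98 to 2.81 in the controls. For the member SPT15 it was 2.31 to 3.60 at 10 min and 2.24 to 4.54 later, against 2.15 to 2.76 in the controls. For ACT1 it moved less, from 0.90 to 1.01 in the controls to 0.95 to 1.03 at 10 min and 1.00 to 1.19 later. Background and the SRB4 ratio thus moved with heat, and their part in the results below was not tested. An alternative fit entered the background level as a covariate, but in that level the heat arrays from 30 min did not overlap the controls. Such a fit cannot separate background from heat at those times, so its values below only show how the results depend on this setting. A member was called near background on an array where it lay below the 95th percentile of the non-yeast probes there. Of the members, 23 were near background on no array, and UAF30 was near background on all 27 and is given no fold. Of the 3 heat arrays at 10 min and at 30 min, 1 and 2 were near background for RPA49, 2 and 1 for RPA43, 2 and 1 for RPC82, 2 and 3 for RPC37 and 3 and 2 for RPC19, so the folds printed for these rest in part on such arrays.

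At 10 and 30 min in heat the messenger RNAs of the enzymes stood further below control than those of the factors. All 23 subunits fell at 10 min and all 23 fell at 30 min, whereas 38.8% and 40.2% of all tested genes were called lower in those comparisons. At least 2-fold falls were called for 11 of the 23 subunits at 10 min and 17 at 30 min, against 7.51% and 14.2% of all tested genes. Of the 17 factors, counting SPT15, 11 fell and 3 rose at 10 min, and 8 fell and 4 rose at 30 min. None was called as changed 2-fold on the offset log2 scale, where 8.03% and 12.8% of all tested genes were at least 2-fold higher. That scale shrinks the changes of dim genes, and 5 of the 17 factors lay above the median level of tested genes, against 14 of the 23 subunits. Without the offset TFC7 passed 2-fold at 30 min, with mean intensities of 962 in heat and 460 in control. RRN7 and RRN11, near background, also passed it at 10 min. At 30 min their mean intensities were also more than 2-fold apart, 105 and 38.8 in heat against 242 and 86.9 in control. The shares of all tested genes called higher were 33.8% at 10 min and 40.7% at 30 min. The median log2 fold of the subunits was -0.99 at 10 min and -1.61 at 30 min, and that of the factors was -0.23 and -0.05, beside medians over all tested genes of -0.03 and 0.00. With members that were near background on all heat arrays set at their lower bound, the subunit medians were -0.89 and -1.61.

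**Figure D1:**
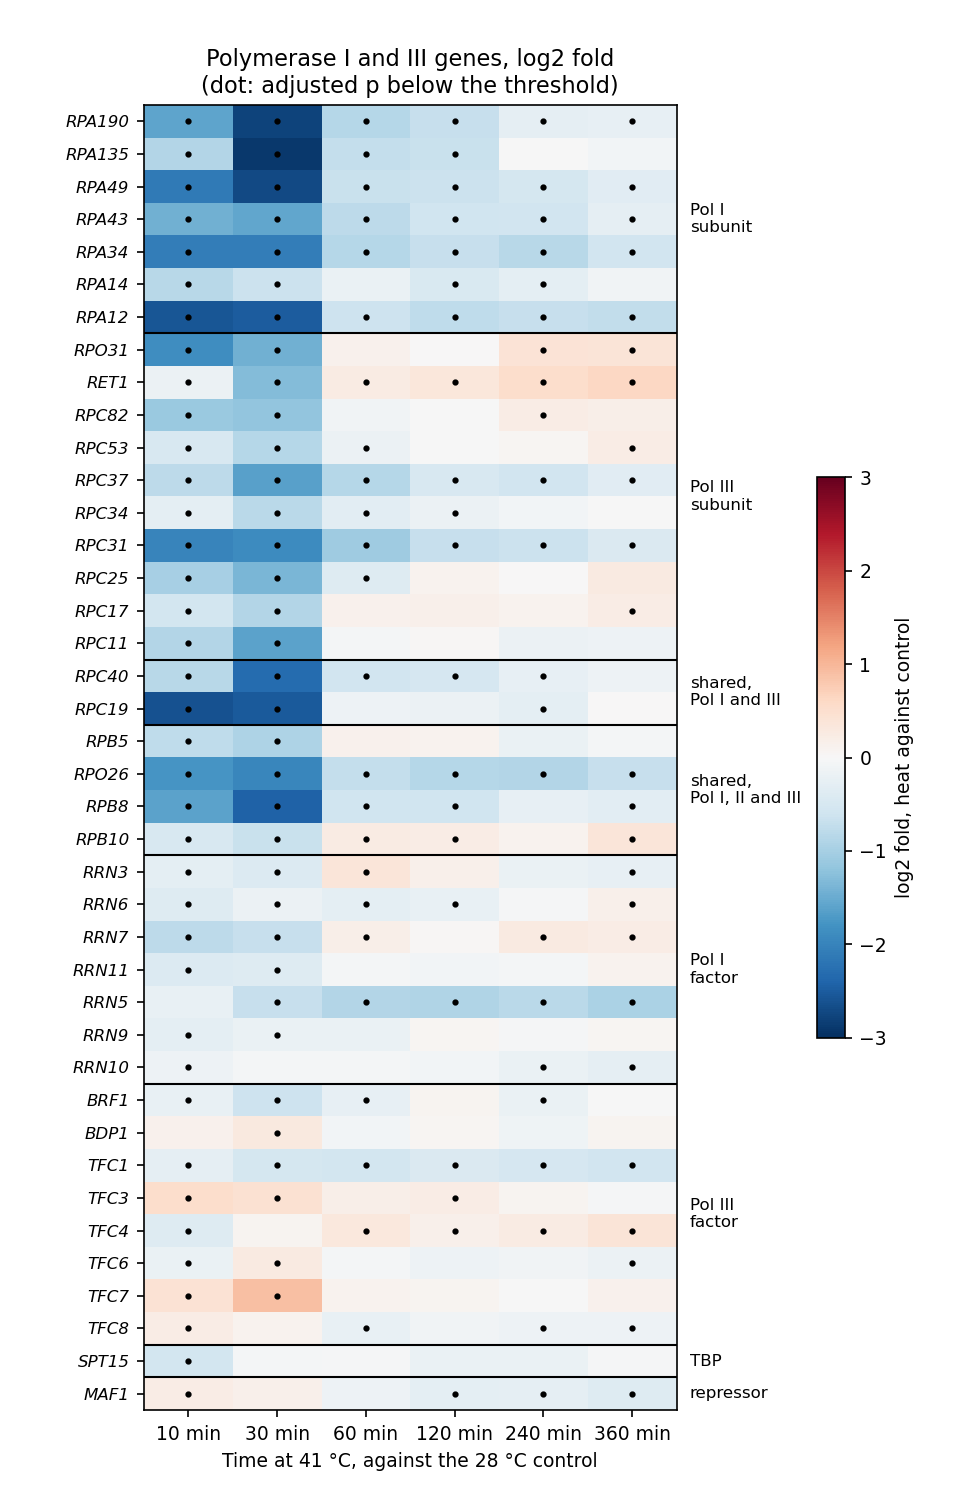
Log2 fold change of 40 members (rows, ordered by role; UAF30 is left out) in each of the 6 comparisons of heat with control (columns), from -3 (blue) to 3 (red), with dots marking adjusted p of 0.05 or less. The subunit rows are below 0 at 10 and 30 min in every case, though RET1 at 10 min (-0.17) is paler than several factor rows. The factor rows are of both colours and lie between -0.78 and 0.91 at these times.

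All 7 polymerase I subunits fell at both of these times. RPA12, the subunit that aids cleavage of the nascent RNA, had intensities of 104, 117 and 73 at 10 min and 116, 119 and 96 at 30 min in heat, against 1207, 1145 and 1101 in control at 0 min. All the heat arrays lay far below the controls and were near background, so the fall was at least 6.15-fold at 10 min (adjusted p = 7.84e-18) and at least 9.04-fold at 30 min (adjusted p = 4.57e-18). RPA49, which with Rpa34 forms a dimer related to the polymerase II factor TFIIF, had 214, 296 and 255 at 10 min and 129, 138 and 131 at 30 min, against 1561, 1436 and 1482 in control. Its log2 fold was -2.12 ± 0.09 at 10 min and -2.70 ± 0.09 at 30 min (adjusted p = 1.16e-15 and 4.66e-18). The groups did not overlap for either gene. Its partner RPA34 was at least 4.18-fold lower at 10 min and at least 6.14-fold lower at 30 min (adjusted p = 2.23e-14 and 7.45e-15).

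The catalytic subunits of polymerase I fell in steps. RPA190, the largest subunit, had 588, 651 and 502 at 10 min and 187, 198 and 177 at 30 min in heat, against 2006, 2016 and 1820 in control. RPA135, the second largest, had 1703, 2022 and 1475 at 10 min and 348, 363 and 301 at 30 min, against 3234, 3206 and 3294 in control. In both genes the arrays at 30 min lay below those at 10 min, which lay below the controls. Between 10 and 30 min RPA135 fell by 2.02 ± 0.08 on the log2 scale (adjusted p = 4.11e-16) and RPA190 by 1.20 ± 0.07 (adjusted p = 1.64e-12). The other 4, RPA12, RPA34, RPA43 and RPA14, were not called between these times, with RPA12 and RPA34 near background on all arrays of both and RPA14 on none, while RPA49 fell by 0.57 ± 0.09 (adjusted p = 1.25e-05). The stalk subunits RPA43 and RPA14 changed less than the catalytic pair at 30 min, with log2 folds relative to control of -1.56 ± 0.09 and -0.65 ± 0.10 (adjusted p = 1.80e-13 and 2.98e-06).

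Polymerase III subunits fell by differing amounts at 10 min. RPO31, the largest subunit, had 154, 193 and 140 at 10 min and 269, 264 and 234 at 30 min in heat, against 952, 861 and 855 in control. At 10 min it was near background and at least 4.78-fold lower (adjusted p = 2.95e-16), and at 30 min its log2 fold was -1.44 ± 0.08 (adjusted p = 1.45e-14). RPO31 was the only subunit called higher at 30 min than at 10 min, by 0.42 ± 0.08 (adjusted p = 4.55e-05), while 12 subunits were called lower between these times. In that comparison 33.5% of all tested genes were called higher and 26% lower.

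RET1, the second-largest subunit, had 1178, 1237 and 1379 at 10 min and 509, 495 and 552 at 30 min in heat, against 1446, 1458 and 1407 in control. Its arrays at 10 min lay just below the controls, and those at 30 min lay far below both. The log2 fold was -0.17 ± 0.07 at 10 min (adjusted p = 0.0367, and 0.0715 when only the 2 groups compared entered the fit) and -1.29 ± 0.07 at 30 min (adjusted p = 4.44e-14). Over the heat times RPO31 thus had its own lowest level at 10 min, and RET1 had its own at 30 min.

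RPC31, part of the trimer with Rpc82 and Rpc34 that is needed for initiation, had 47, 56 and 62 at 10 min and 55, 76 and 68 at 30 min in heat, against 636, 483 and 564 in control. It was near background on all 6 heat arrays and fell at least 2.95-fold at 10 min and at least 4.34-fold at 30 min (adjusted p = 1.99e-14 at both). RPC82 fell by 1.10 ± 0.09 at 10 min (adjusted p = 1.41e-10) and by 1.19 ± 0.09 at 30 min (adjusted p = 1.84e-11). RPC34, the remaining member of the trimer, had 150, 133 and 120 at 10 min and 58, 69 and 51 at 30 min, against 191, 199 and 180 in control. It was called lower but near background in both groups, and is given no fold.

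RPC37, which with Rpc53 forms the TFIIF-like dimer of polymerase III, had 212, 217 and 242 at 10 min and 64, 77 and 73 at 30 min, against 492, 423 and 482 in control. Its arrays fell into 3 separate levels, with a log2 fold of -0.78 ± 0.08 at 10 min (adjusted p = 1.24e-08) and a fall of at least 3.59-fold at 30 min, where it was near background (adjusted p = 6.68e-15). RPC53 had 132, 127 and 127 at 10 min and 72, 71 and 71 at 30 min, against 223, 217 and 231 in control, all near background. RPC11, the RNA cleavage subunit, fell by 0.89 ± 0.08 at 10 min and 1.61 ± 0.08 at 30 min (adjusted p = 6.13e-10 and 4.64e-15). Of the stalk subunits, RPC17 fell by 0.55 ± 0.08 and 0.88 ± 0.08 at these times (adjusted p = 1.91e-06 and 5.08e-10). RPC25, near background on all 6 heat arrays, fell at least 1.74-fold and at least 2.56-fold (adjusted p = 1.02e-07 and 2.60e-10).

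Among the shared subunits, RPC19 and RPC40 form the assembly platform of both enzymes. RPC19 had 93, 135 and 102 at 10 min and 122, 118 and 127 at 30 min in heat, against 1306, 1198 and 1260 in control. It was near background at 10 min, with a fall of at least 6.68-fold (adjusted p = 1.80e-16), and its log2 fold at 30 min was -2.53 ± 0.10 (adjusted p = 1.14e-16). RPC40 had 1262, 1315 and 1172 at 10 min and 369, 409 and 352 at 30 min, against 2360, 2172 and 2447 in control. RPC40 at 10 min lay between its levels at 30 min and in control, with a log2 fold of -0.84 ± 0.09, and reached -2.31 ± 0.09 at 30 min (adjusted p = 2.76e-08 and 1.05e-16).

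The listed subunits common to all the nuclear polymerases also fell. RPO26 had 303, 351 and 352 at 10 min and 261, 287 and 289 at 30 min in heat, against 1521, 1264 and 1450 in control, with log2 folds of -1.76 ± 0.08 and -1.95 ± 0.08 (adjusted p = 4.10e-15 and 2.17e-16). RPB8 had 700, 822 and 534 at 10 min and 344, 351 and 312 at 30 min, against 2429, 2355 and 2142 in control, with log2 folds of -1.61 ± 0.10 and -2.43 ± 0.10 (adjusted p = 1.34e-12 and 2.54e-16). Heat and control arrays did not overlap in either gene. RPB5 and RPB10 fell less, by 0.92 ± 0.10 and 0.66 ± 0.09 at 30 min (adjusted p = 1.55e-08 and 9.92e-07).

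**Figure D2:**
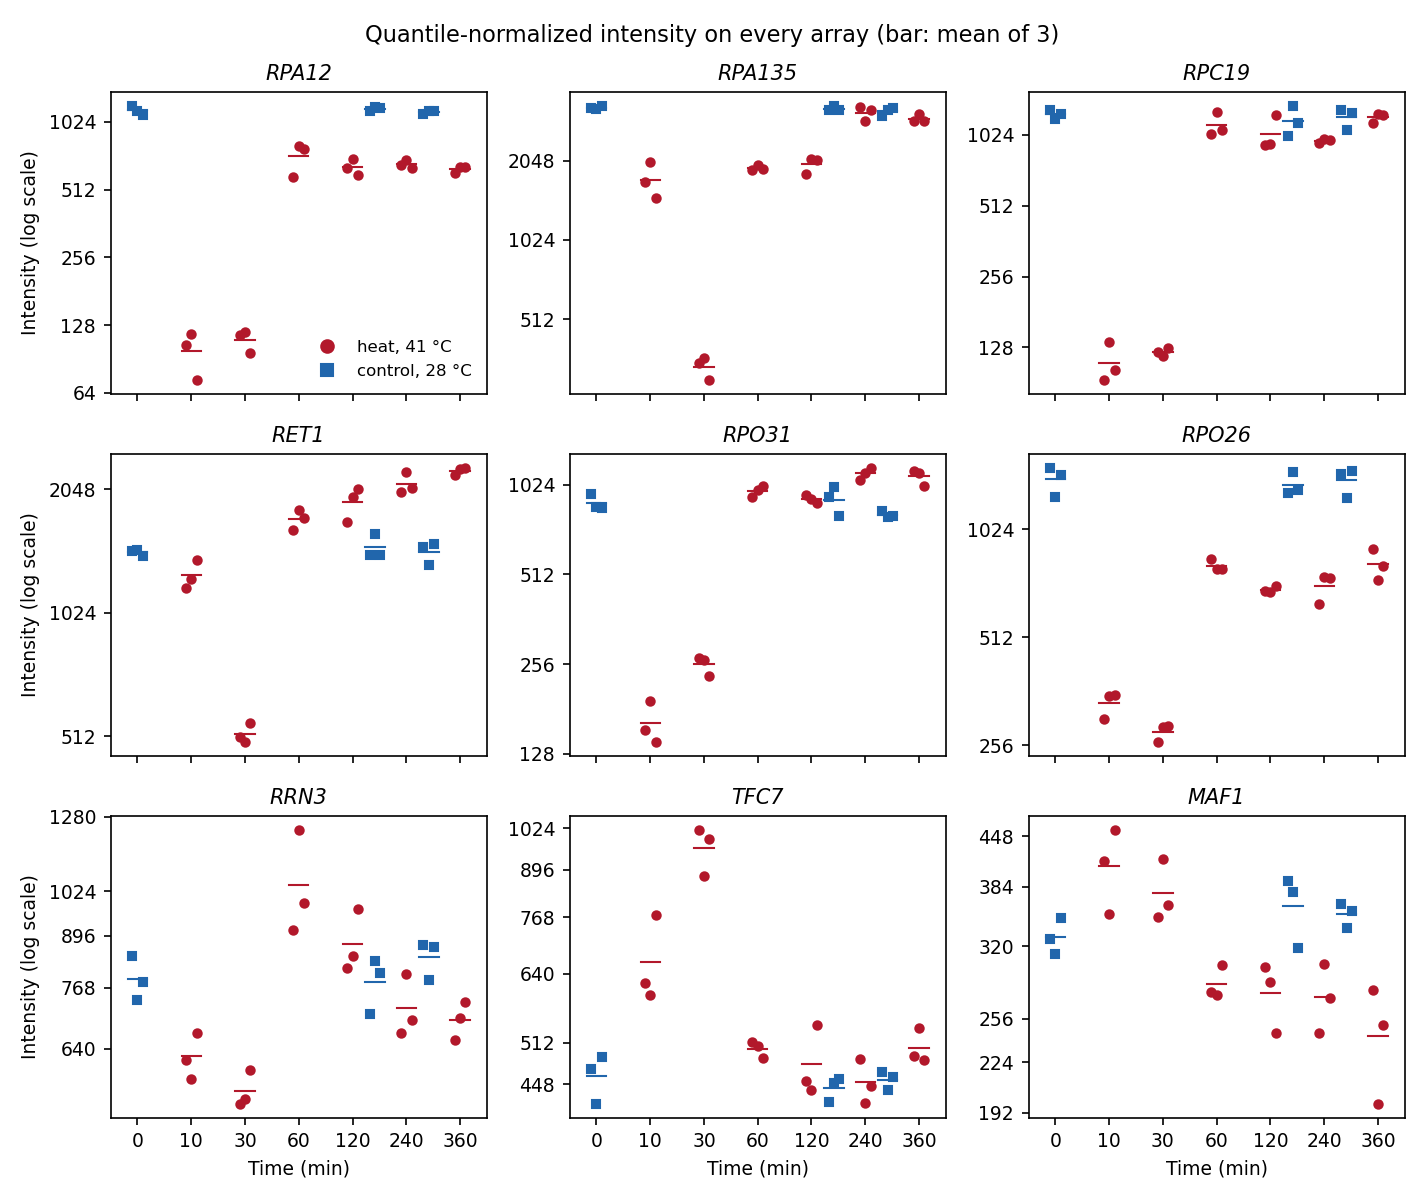
Quantile-normalized intensity (log axis) of 9 members on each array against time in minutes, with heat arrays at 41 °C as red circles, control arrays at 28 °C as blue squares and bars at the mean of 3. RPA12 and RPC19 are lowest at 10 and 30 min, RPA135 and RET1 at 30 min, and TFC7 is highest at 30 min.

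Initiation factors of polymerase I moved less on the offset log2 scale. Of the 8, 6 fell at 10 min and 6 at 30 min, with none higher. Of all tested genes 38.8% and 40.2% were called lower at these times, and 33.8% and 40.7% higher. UAF30 was near background on every array, and RRN7, RRN11 and RRN10 on all heat arrays at 10 min, so the size of their change is not known. RRN3, which makes the enzyme competent for initiation, had 619, 585 and 671 at 10 min and 542, 551 and 600 at 30 min in heat, against 843, 739 and 781 in control. The groups did not overlap, and the log2 folds were -0.29 ± 0.09 and -0.41 ± 0.09 (adjusted p = 0.00620 and 0.000213). RRN7 of the core factor had 101, 98 and 81 at 10 min and 108, 114 and 93 at 30 min, against 253, 229 and 243 in control. It was called lower (adjusted p = 4.48e-10 and 1.77e-09), but is given no fold, since all 6 of these heat arrays and 2 of the control arrays were near background. RRN11 of the same complex had 39, 33 and 40 at 10 min, against 96, 74 and 91 in control, all near background. RRN6, the remaining core factor gene, fell by 0.38 ± 0.06 at 10 min (adjusted p = 1.04e-05).

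In the upstream activating factor, RRN5 had 977, 891 and 713 at 10 min and 576, 633 and 559 at 30 min in heat, against 980, 1123 and 967 in control. Heat and control overlapped at 10 min (adjusted p = 0.0655) and were apart at 30 min, with a log2 fold of -0.69 ± 0.11 (adjusted p = 4.21e-06). Averaged over its 3 probe sets, the value at 30 min was -0.17 (adjusted p = 0.126). RRN9 fell by 0.30 ± 0.09 at 10 min and 0.21 ± 0.09 at 30 min (adjusted p = 0.00606 and 0.0423), and RRN10 had 109, 133 and 138 at 10 min, against 146, 159 and 154 in control, all near background.

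Of the 8 factors of polymerase III, 3 were higher and 4 lower at 10 min, and 4 higher and 2 lower at 30 min, near the shares of all tested genes given above (33.8% higher and 38.8% lower, then 40.7% and 40.2%). TFC3, the TFIIIC subunit that contacts the internal promoter, had 657, 573 and 768 at 10 min and 624, 588 and 645 at 30 min in heat, against 457, 398 and 412 in control. TFC7, also of TFIIIC, had 622, 598 and 773 at 10 min and 1019, 877 and 990 at 30 min, against 470, 420 and 489 in control. In both genes every heat array at these times lay above every control array. The log2 folds were 0.53 ± 0.08 and 0.45 ± 0.08 for TFC3 (adjusted p = 2.05e-06 and 1.52e-05) and 0.43 ± 0.08 and 0.91 ± 0.08 for TFC7 (adjusted p = 3.89e-05 and 2.69e-10).

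The other TFIIIC genes did not move as one. TFC8 had 217, 220 and 248 at 10 min, against 186, 168 and 180 in control, and was called higher (adjusted p = 0.000802), with no fold given since all control arrays and 2 of the heat arrays were near background. TFC4, which places TFIIIB, had 269, 253 and 291 at 10 min and 424, 396 and 433 at 30 min, against 395, 364 and 414 in control. It fell by 0.39 ± 0.06 at 10 min (adjusted p = 8.07e-06) and its log2 fold at 30 min was 0.08 ± 0.06 (adjusted p = 0.279). Between the heat arrays it was higher at 30 min than at 10 min by 0.47 ± 0.06 (adjusted p = 1.18e-06). TFC6 fell by 0.21 ± 0.07 at 10 min (adjusted p = 0.0168) and rose by 0.27 ± 0.07 at 30 min (adjusted p = 0.00203). TFC1 had 960, 707 and 610 at 10 min and 618, 602 and 592 at 30 min, against 907, 1055 and 806 in control. One heat array overlapped the controls at 10 min (log2 fold -0.26 ± 0.11, adjusted p = 0.0321, and 0.160 when only the 2 groups compared entered the fit), and all lay below them at 30 min (-0.52 ± 0.11, adjusted p = 9.52e-05, and 0.0703 with the background level as a covariate).

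Within TFIIIB, BRF1 had 332, 289 and 331 at 10 min and 222, 201 and 221 at 30 min in heat, against 390, 363 and 413 in control. Every heat array was below every control array, with log2 folds of -0.22 ± 0.07 and -0.61 ± 0.07 (adjusted p = 0.00836 and 3.76e-08). BDP1 had a log2 fold of 0.12 ± 0.08 at 10 min (adjusted p = 0.184) and rose by 0.29 ± 0.08 at 30 min (adjusted p = 0.00283), where the value turned to -0.05 with the background level as a covariate. SPT15, the TATA-binding protein of TFIIIB and of the other polymerases' machinery, had 1072, 976 and 1157 at 10 min and 1531, 1474 and 1659 at 30 min, against 1529, 1586 and 1727 in control. It fell by 0.55 ± 0.09 at 10 min (adjusted p = 6.40e-06) and at 30 min overlapped the controls, with a log2 fold of -0.05 ± 0.09 (adjusted p = 0.605).

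MAF1, the polymerase III repressor, had 416, 353 and 457 at 10 min and 350, 418 and 363 at 30 min in heat, against 327, 312 and 349 in control. Heat arrays lay above the controls at both times by small margins, and the test called it higher at 10 min by 0.23 ± 0.09 (adjusted p = 0.0209) and not at 30 min, where it was 0.15 ± 0.09 (adjusted p = 0.129). With the background level as a covariate the value at 10 min was 0.20 (adjusted p = 0.0535). At 120 min it had 300, 287 and 245 in heat, against 391, 378 and 318 in control, and at 360 min 280, 197 and 251, against 364, 338 and 356 in control at 240 min. On the log2 scale MAF1 fell by 0.28 ± 0.09, 0.27 ± 0.09 and 0.39 ± 0.09 at 120, 240 and 360 min (adjusted p = 0.00685, 0.0108 and 0.000456). In intensities as deposited the first of these was -0.10 (adjusted p = 0.282) and the second -0.15 (adjusted p = 0.137).

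The level of each set on an array was taken as the mean over its members of log2(intensity + 115.3) minus their mean on the control arrays compared. The SD given with it is that of the 3 heat arrays and leaves out the spread of the controls. Polymerase I subunits stood at -1.64 ± 0.12, -2.16 ± 0.04, -0.67 ± 0.07, -0.64 ± 0.08, -0.45 ± 0.04 and -0.34 ± 0.03 from the first to the last of the 6 heat times (SD, n = 3 each). Polymerase III subunits stood at -0.91 ± 0.03, -1.30 ± 0.02, -0.25 ± 0.06, -0.07 ± 0.08, -0.01 ± 0.02 and 0.09 ± 0.05 at the same times (SD, n = 3 each). The 9 control arrays lay between -0.08 and 0.05 around their own group means for polymerase I subunits and between -0.11 and 0.10 for polymerase III subunits. Polymerase I minus polymerase III subunits came to -0.73 ± 0.09, -0.87 ± 0.03, -0.43 ± 0.09, -0.58 ± 0.04, -0.44 ± 0.06 and -0.43 ± 0.03 at the same times (SD, n = 3 each), below 0 at every heat time. RPC53 and RPC34 were near background on every control array at 0 min and every heat array at 10 and 30 min. RPC31, RPC25, RPA12 and RPA34 were so on every heat array at 10 and 30 min, RPO31 at 10 min and RPC37 at 30 min. The early means and their difference thus rest in part on such values. The difference over members near background on no array is given with the processing settings below.

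Polymerase I factors stood at -0.32 ± 0.01 at 10 min and -0.33 ± 0.01 at 30 min, and polymerase III factors at 0.03 ± 0.08 and 0.12 ± 0.05 (SD, n = 3 each). The polymerase I mean is over all 8 factors, UAF30 included, which was near background on every array. RRN7, RRN11 and RRN10 were near background on all 3 heat arrays at 10 min, so this mean and its small SD rest in part on such values. From 60 min the means of both factor sets stayed between -0.14 and -0.01. Subunits minus factors came to -1.08 ± 0.11, -1.59 ± 0.04, -0.29 ± 0.03, -0.23 ± 0.04, -0.10 ± 0.02 and -0.02 ± 0.04 over the 6 heat times in order (SD, n = 3 each). With the spread of the control arrays included, the SD of this gap was 0.11, 0.05, 0.04, 0.08, 0.05 and 0.06. Over the members that were near background on no array the gap was 0.02 at 240 min and 0.04 at 360 min, so its direction at the last times turned with the choice of members.

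**Figure D3:**
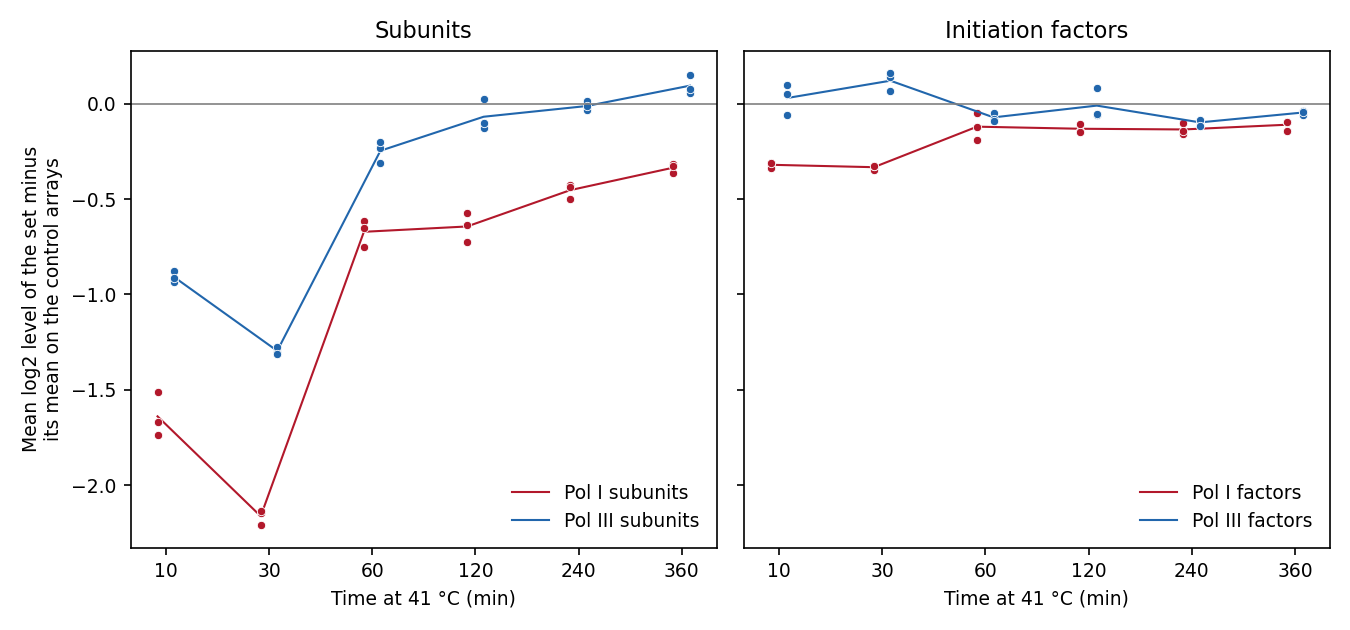
Mean log2 level of each set minus its mean on the control arrays compared, against time in heat in minutes, with 1 point per array and lines through the means of 3 arrays. Subunits are on the left and factors on the right, where the polymerase I set includes UAF30, near background on every array. Polymerase I subunits reach -2.16 and polymerase III subunits -1.30 at 30 min, while the factor sets stay between -0.33 and 0.12. Both subunit sets include members near background at 30 min.

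Between 30 and 60 min in heat all 23 subunits rose, 15 of them at least 2-fold, whereas 32.2% of all tested genes were called higher and 7.32% were at least 2-fold higher. RPA135 rose by 2.17 ± 0.08 and RPA190 by 1.91 ± 0.07 on the log2 scale (adjusted p = 1.56e-16 and 3.79e-16). RPC19 and RPA49 rose by 2.38 ± 0.10 and 2.02 ± 0.09 (adjusted p = 2.23e-15 and 6.19e-15), each from 30 min values of which 2 of 3 were near background. The smallest rise was that of RPA14, 0.46 ± 0.10 (adjusted p = 0.000294). Of the 17 factors 5 rose and 5 fell in the same interval, and 39.4% of all tested genes were called lower. RRN3 rose by 0.76 ± 0.09 (adjusted p = 7.11e-08), and RRN7, near background on all arrays at 30 min, was called higher (adjusted p = 6.75e-11). TFC7, TFC3 and BDP1 fell by 0.80 ± 0.08, 0.28 ± 0.08 and 0.37 ± 0.08 (adjusted p = 5.41e-09, 0.00268 and 0.000341), and MAF1 fell by 0.30 ± 0.09 (adjusted p = 0.00449).

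Between successive heat times after 60 min, of the 41 members 5 were called between 60 and 120 min, 9 between 120 and 240 min and 1, RPA43, between 240 and 360 min, where 34%, 21% and 8.1% of all tested genes were called. With the background level as a covariate, 9 were called between 60 and 120 min. The members called between 60 and 120 min were RPC37, RPC25 and BRF1, which rose, and TFC4 and SPT15, which fell. Relative to the controls, 19 members were lower and 5 higher at 60 min, 17 and 4 at 120 min, 17 and 5 at 240 min, and 16 and 8 at 360 min. The shares of all tested genes called lower were 37.4%, 35.6%, 33.1% and 34.8%, and the shares called higher were 31.8%, 33.3%, 28.3% and 30.9%. In intensities as deposited, without normalization here, these splits were 14 lower and 10 higher at 60 min, 14 and 12 at 120 min, 13 and 6 at 240 min, and 11 and 13 at 360 min.

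Of the 17 members lower at 240 min, 6 were polymerase I subunits, 2 polymerase III subunits, 3 shared subunits and 5 factors, with MAF1 as the other. RPA12 had 656, 696 and 636 at 240 min in heat, against 1106, 1142 and 1145 in control, and 608, 647 and 644 at 360 min. It did not overlap the controls at any heat time, and its log2 fold at 360 min was -0.74 ± 0.09, and -0.36 (adjusted p = 0.0536) with the background level as a covariate. RPA34 was at -0.83 ± 0.11 at 240 min (adjusted p = 5.13e-07). RPC31 had 283, 282 and 287 at 240 min, against 544, 431 and 551 in control, and RPC37 had 262, 255 and 243, against 473, 381 and 442. Their log2 folds were -0.64 ± 0.10 and -0.57 ± 0.08 (adjusted p = 1.01e-05 and 3.30e-06), opposite in sign to the median of the polymerase III subunits, which was 0.03. RPO26 had 632, 752 and 750 at 240 min, against 1465, 1250 and 1491 in control, a log2 fold of -0.88 ± 0.08 (adjusted p = 4.34e-09).

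Several members rose above the controls late in heat. RET1 had 2018, 2263 and 2065 at 240 min in heat, against 1479, 1336 and 1510 in control, and 2225, 2293 and 2311 at 360 min. All heat arrays from 60 min lay above their controls, and the log2 folds at 60, 120, 240 and 360 min were 0.25 ± 0.07, 0.34 ± 0.07, 0.52 ± 0.07 and 0.62 ± 0.07 (adjusted p = 0.00381, 0.000218, 1.72e-06 and 1.14e-07). RPO31 had 1066, 1123 and 1169 at 240 min, against 840, 796 and 805 in control, a log2 fold of 0.41 ± 0.08 (adjusted p = 6.60e-05). With the background level as a covariate, RET1 was at -0.02 at 60 min, 0.07 at 120 min (adjusted p = 0.674) and 0.26 at 240 min (adjusted p = 0.0618). RPB10 had 1569, 1588 and 1694 at 360 min, against 1323, 1081 and 1312 in control (log2 fold 0.36 ± 0.09, adjusted p = 0.00211), and with that covariate its value was -0.05.

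Among the factors, RRN5 had 447, 369 and 454 at 360 min in heat, against 919, 979 and 892 in control, a log2 fold of -0.96 ± 0.11 (adjusted p = 9.42e-08). By its brightest probe set it was lower from 30 min to the end. Averaged over its 3 probe sets it was -0.17 at 30 min (adjusted p = 0.126) and -0.67 at 360 min (adjusted p = 4.68e-06). With the background level as a covariate the value of the brightest at 360 min was -0.30 (adjusted p = 0.126). TFC1 had 530, 538 and 619 at 360 min, against 866, 912 and 886 in control, a log2 fold of -0.57 ± 0.11 (adjusted p = 6.79e-05). TFC4 had 614, 503 and 533 at 360 min, against 403, 367 and 412 in control, a log2 fold of 0.38 ± 0.06 (adjusted p = 1.70e-05). With that covariate the adjusted p at 360 min was 0.267 for TFC1 and 0.172 for TFC4. RRN3 had 911, 1230 and 990 at 60 min, against 843, 739 and 781 in control at 0 min, and was higher by 0.35 ± 0.09 (adjusted p = 0.00132, and 0.395 with that covariate). At 360 min it had 656, 701 and 736, against 873, 786 and 867 in control at 240 min, and its log2 fold was -0.24 ± 0.09 (adjusted p = 0.0245). RRN7 had 322, 316 and 349 at 240 min, against 240, 266 and 263 in control, and was higher by 0.26 ± 0.07 (adjusted p = 0.00230). RRN10 had 109, 111 and 107 at 360 min, against 150, 153 and 165 in control, where all control arrays were near background.

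For 5 pairs, a polymerase I subunit was set beside its structural counterpart in polymerase III, and likewise the TFIIB-like factors RRN7 and BRF1. The TFIIF-like dimers were not paired gene by gene. The levels of different genes were not compared, only their log2 folds. For the largest subunits, RPA190 minus RPO31 was 0.29 at 10 min and -1.33 at 30 min, so their order turned between these times, with RPO31 near background at 10 min. From 60 min it was -0.98, -0.70, -0.67 and -0.62. For the second-largest subunits, RPA135 minus RET1 was -0.70, -1.60, -0.98, -1.01, -0.53 and -0.71 over the 6 times in order. The cleavage subunits, RPA12 minus RPC11, differed by -1.68 at 10 min and -0.88 at 30 min, values that rest on RPA12 near background. The stalk pair RPA43 and RPC25 differed by -0.20 at 30 min and -0.71 at 120 min, with RPC25 near background at 30 min, and RPA14 and RPC17 by 0.23 and -0.62. RRN7 minus BRF1 was 0.46 at 240 min and 0.25 at 360 min, where neither gene was near background. These differences between fitted folds were not tested.

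**Figure D4:**
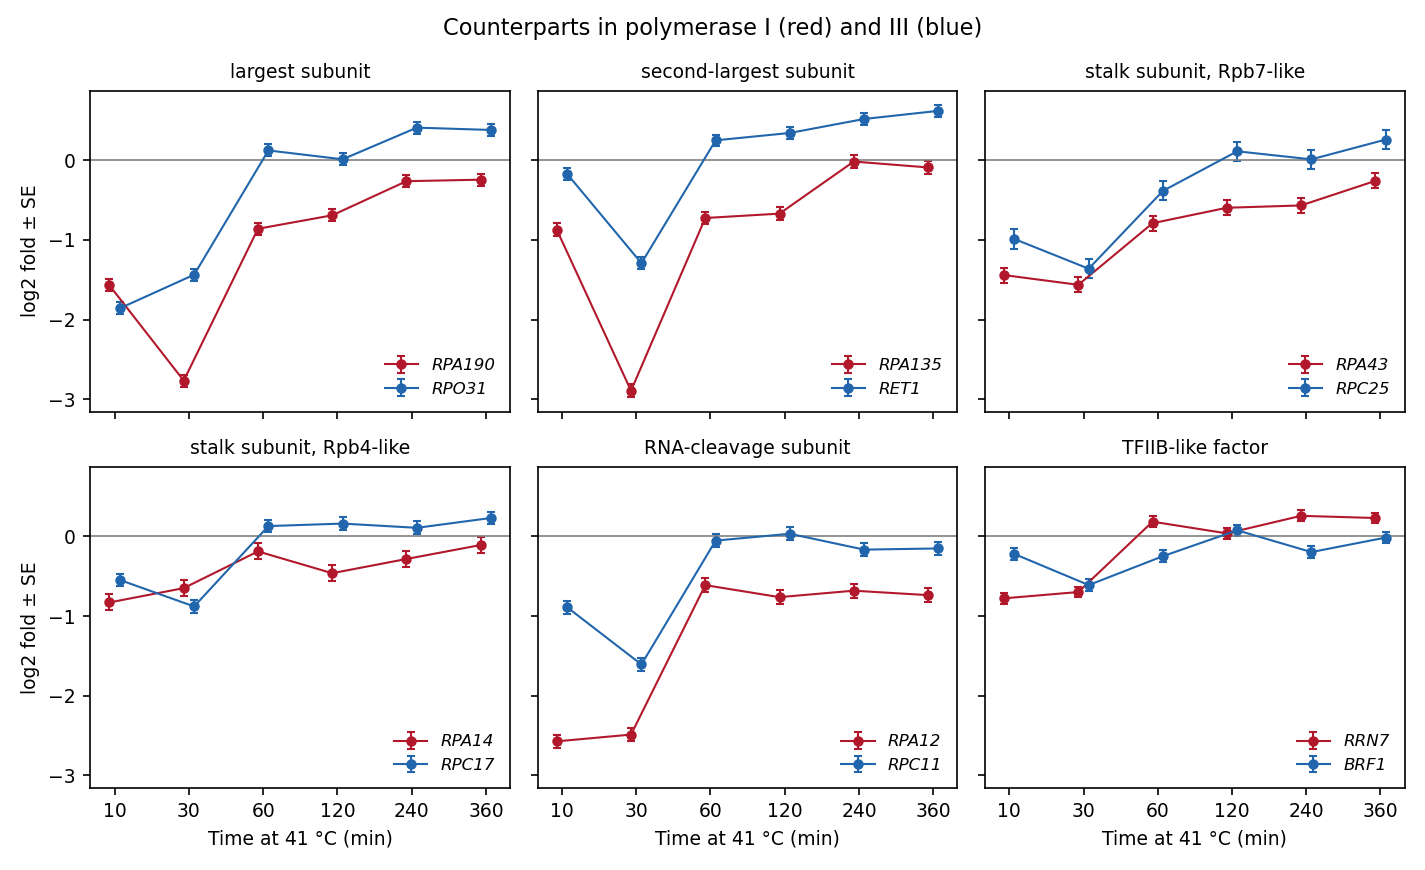
Log2 fold of heat against control (± SE) at 6 times in minutes for 6 pairs, with the polymerase I gene in red and its polymerase III counterpart in blue. RPA190 lies above RPO31 at 10 min and below it later, and RPA135 lies below RET1 throughout.

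RPA190 is represented by 7 probe sets, and these differed late in heat. In deposited intensities the brightest, used above, had a mean log2 ratio to control of -1.82 at 10 min and -3.56 at 30 min, and of -0.28 and -0.23 at the last 2 times. The next 3 in brightness were at -1.09, -0.95 and -1.40 at 240 min and at -0.89, -0.66 and -1.36 at 360 min, all further below the controls than the brightest. At 30 min the first and last of these 3 were at -2.52 and -1.65, and the other, with a mean of 40.5 in heat, was too dim for a ratio. The remaining 3 averaged between 21.2 and 128 in heat, where the lowest deposited value is 20, and their ratios are not given. Averaged over all probe sets the log2 fold of RPA190 was -1.11 at 240 min and -1.05 at 360 min, in place of -0.26 ± 0.07 and -0.24 ± 0.07. That average includes the dim probe sets.

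**Figure D5:**
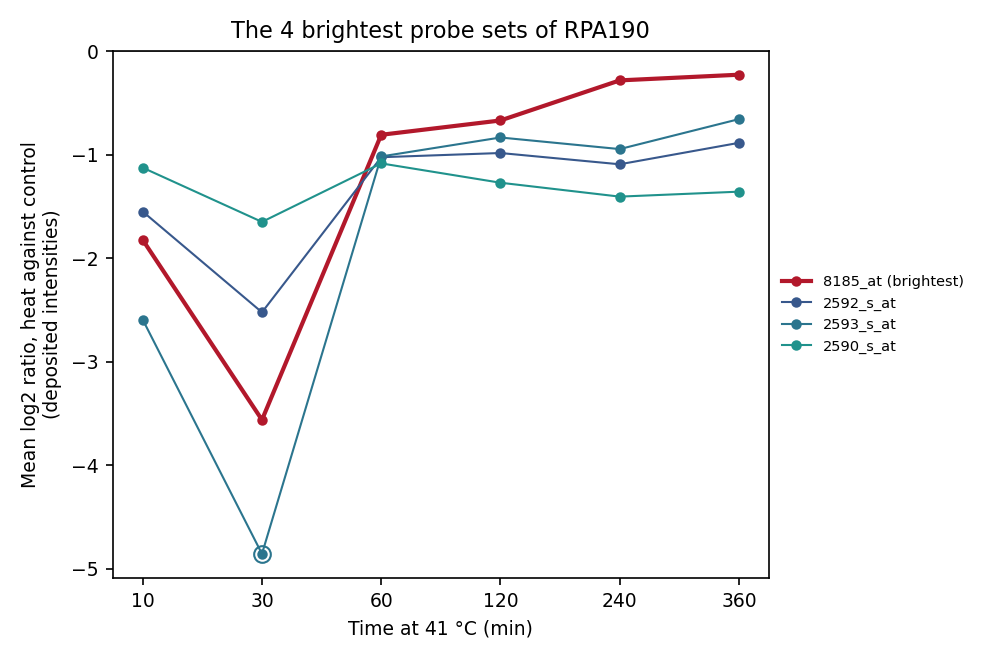
Mean log2 ratio of deposited intensities, heat over control, for the 4 brightest probe sets of RPA190 against time in minutes, each line 1 probe set and the brightest in red. The brightest is nearest to 0 at 240 and 360 min, and the ringed point at 30 min rests on a mean of 40.5 in heat.

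The heat effect at 240 min was also set against that at 120 min, each relative to its own control. A difference was called in 3 of the 41 members, and in 10.6% of all tested genes. RPA135 moved up by 0.65 ± 0.11 (adjusted p = 0.000644), RPA190 by 0.43 ± 0.11 (adjusted p = 0.0105) and RPO31 by 0.40 ± 0.11 (adjusted p = 0.0192). RPA135 had 3277, 2882 and 3176 at 240 min in heat, against 3010, 3185 and 3238 in control, and these overlapped (log2 fold -0.02 ± 0.08, adjusted p = 0.875). With arrays divided by their median instead, it was -0.27 (adjusted p = 0.0265). At 120 min it had 1820, 2081 and 2059, against 3185, 3306 and 3185 in control, all below. The value of RPA190 rests on the brightest probe set, since averaged over all of its probe sets it was -0.05.

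No member was called between the control times at 28 °C. Between control at 120 min and control at 0 min, limma called 0 of 41 members and 0% of all tested genes, and at an unadjusted p under 0.05 there were 0 members and 97 genes. Between control at 240 min and control at 0 min it called 0 members and 0.0707% of all tested genes, with 0 members and 220 genes at an unadjusted p under 0.05. RPA12, for example, had 1106, 1142 and 1145 at 240 min, against 1207, 1145 and 1101 at 0 min.

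Other genes of the same processes were followed as lists, whose counts stand beside the shares of all tested genes called lower (38.8% at 10 min and 40.2% at 30 min) and higher (33.8% and 40.7%). Of 58 nucleolar ribosome biogenesis genes, 57 were lower at 10 min and 57 at 30 min, with median log2 folds of -1.37 and -1.72, and NOP1, the methyltransferase of box C/D particles, was at -3.03 ± 0.13 at 10 min (adjusted p = 7.79e-16). The subunit medians were -0.99 and -1.61, and the difference between these lists was not tested. Of 22 tRNA maturation genes, 21 were lower at 10 min and 20 at 30 min, with medians of -0.60 and -0.94, among them TRM1, a tRNA methyltransferase, at -2.17 ± 0.10 at 10 min (adjusted p = 2.55e-15). Of 7 subunits of polymerase II alone, 5 were lower at 10 min, and 4 were lower and 1 higher at 30 min, with medians of -0.60 and -0.30. RPO21, the largest of them, was at -0.67 ± 0.09 at 10 min and 0.27 ± 0.09 at 30 min (adjusted p = 5.06e-07 and 0.00878).

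Of 17 general initiation factors of polymerase II, 8 were lower and 3 higher at 10 min, with a median of -0.11. Of 13 other proteins of ribosomal DNA and polymerase I, 8 were lower and 1 higher, with a median of -0.33, and RNT1, the RNase III that cuts the ribosomal RNA precursor, was at -0.93 ± 0.07 (adjusted p = 2.56e-11). Of 17 other polymerase III proteins and regulators, 10 were lower and 4 higher, with a median of -0.21. The kinase SCH9 was at -1.43 ± 0.07 and the protein kinase A subunit TPK2 at 1.31 ± 0.07 (adjusted p = 2.80e-15 and 3.68e-14). Of 8 regulators of ribosome synthesis, 3 were lower and 2 higher, near the shares of all genes, with a median of -0.14, and TOD6, a repressor of ribosome biogenesis genes, was at -1.21 ± 0.07 (adjusted p = 6.42e-13).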

How the data were processed

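The 27 arrays are 1-colour Affymetrix arrays hybridised with biotin-labelled cRNA from total RNA, per the labels' protocols. The authors deposited linear intensities, 1 value for each probe set on each array. The submitters' processing notes name MAS5, with the version, scaling target and genome build not given in the sources used here. The lowest deposited intensity was 20. Of 9335 probe sets, 60 array controls, 328 naming several genes and 2443 naming none were left out. The 6504 naming 1 gene gave 5656 tested genes, the brightest probe set standing for the 315 genes with several (3 of them members), and all their IDs matched the reference gene table.

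Intensities were quantile-normalized over the tested genes and log2-transformed with an offset of 115.3, their 10th percentile. They were fitted with limma 3.58.1 in R 4.3.3 as 1 mean per group over all 27 arrays, with a trended prior. The members and gene lists were chosen with earlier results of these data known. Every member is described, and values on each array are given for the 2 in each role with the largest called change at 10 min, for those called against their role's median, for RRN3, SPT15 and MAF1, and for a few others chosen after their values were seen (RPA190, RPA135, RPC53 and array values at some later times). From the other lists, genes were named among up to 3 each with the largest called change at 10 min. Where all heat arrays of a group were near background, a bound is given from deposited intensities against the lowest level above background. Differences between counterpart folds were not tested.

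Pairing by replicate number was not shown throughout: of 45 heat pairs with the same number, 23 had a correlation over 0.1 (median 0.13, highest 0.76), so the block is an alternative. On simulated data for heat at 10 min against control, the fit over 5656 genes called 100 of 100 genes changed by 1 on the log2 scale, 92 of 100 changed by 0.5, and 11 unchanged ones. For heat at 240 min it called 86 of 100 changed by 0.5. In the data 1911 genes were called higher and 2192 lower at 10 min, so the simulation does not show recovery where most genes change. The labels call the replicates biological, and the p-values measure the spread between these samples. Promoter and protein sequences were not analysed here.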

Additional observations from a re-analysis of the deposited data

Results flagged for a closer look

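The heat effects at 240 and 120 min, each against its own control, differed by test in 3 members: RPA135 by 0.6543 (adjusted p = 0.000644), RPO31 by 0.3977 (adjusted p = 0.0192) and RPA190 by 0.4286 (adjusted p = 0.0105) on the log2 scale. Leaving out each array in turn gave 0.60 to 0.71 for RPA135, 0.33 to 0.48 for RPO31 and 0.35 to 0.47 for RPA190. The value of RPA190 rests on its brightest probe set, and averaged over all of its probe sets it was -0.051.

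A signal in data that the comparisons above do not use came from RDN5-1, the 5S ribosomal RNA made by polymerase III, whose near-identical copies make its assignment uncertain and which was chosen after its values were seen. Its lowest deposited intensity on the 6 heat arrays at 10 and 30 min was 9817.7, above the highest of the 9 control arrays, 5517. At 120 min its normalized intensities were 1132, 1418 and 1414. Whether the labelled cRNA reports the amount of this RNA was not tested.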

How the results depend on the processing

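Of 480 member values compared per setting, 474 kept direction and call with the replicate number as a block (replicate block), which lost none and gained 6 (such as RRN9 at 60 min, -0.19). Averaging all probe sets turned TFC3 to -0.077 at 120 min and -0.31 at 240 min, and RPA190 to -0.033 between 120 and 240 min in heat and to -0.051 in the difference of heat effects. It gave polymerase I minus III subunits of -0.74 (30 min), -0.63 (120 min), -0.56 (240 min) and -0.55 (360 min), and factors of -0.37 (30 min) and 0.048 (240 min). With arrays divided by their median, subunits minus factors was -0.15 (240 min) and -0.090 (360 min), polymerase I minus III subunits -0.65, -0.51 and -0.51 (120 to 360 min), and 0 members were called between 240 and 360 min.

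The background level as a covariate turned 14 values: RPA14 to 0.38, 0.12, 0.27 and 0.53 (60 to 360 min), RPB10 to -0.12, -0.15 and -0.052 (60, 120, 360 min), BDP1 to -0.051, -0.39 and -0.39 (30, 120, 360 min), RET1 to -0.017 (60 min), TFC3 to -0.024 (120 min), RPC82 to -0.020 (240 min) and RPB8 to 0.10 (360 min). Members called higher were then 3, 1, 3 and 5 (60 to 360 min), lower 10 (360 min), and 9 were called between 60 and 120 min. Members higher were 10, 12 and 13 (60, 120, 360 min) in deposited intensities, which turned RPC53 to 0.18 (120 min) and RRN10 to 0.17 (60 against 30 min in heat) and gave polymerase I minus III subunits of -0.49 (360 min). They were 2 at 120 min with control 0 min in place of the later control, and 5 at 360 min without the dimmest 25% of genes. With culture as a random block 2 members were called between 240 and 360 min. With only the groups compared, 2 were higher at 120 min, and 1, 2 and 5 were called between successive heat times from 60 min.

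Over members above the median level, subunits minus factors was -1.75, -0.11, -0.073, 0.15 and 0.22 (30 to 360 min), polymerase I minus III subunits -0.62, -0.72, -0.78, -0.61 and -0.59 (10, 60, 120, 240, 360 min), and factors -0.74 (30 min) and -0.24 (240 min). Over members near background on no array (a setting added after seeing the data), these were -0.80, -0.15, 0.021 and 0.038 (10, 60, 240, 360 min), then -0.55, -0.70, -0.79, -0.34 and -0.38, and -0.19 for factors (240 min). With no offset, subunits minus factors was -1.35, -2.07 and -0.34 (10, 30, 60 min), subunits by enzyme -0.79 (30 min) and -0.49 (360 min), factors by enzyme -0.60 and -0.70 (10, 30 min), and 0 members were called between 240 and 360 min. Subtracting background gave -1.25 and -1.83 for subunits minus factors (10, 30 min), 2 calls between 240 and 360 min, and 0.16 for RRN11 (240 min). An offset of 32 gave -1.26 and -1.90, -0.48 and -0.59 for factors by enzyme, and 0 calls between 240 and 360 min. The cause of these changes was not tested.

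Leaving out 1 array at a time kept 2949 of 3120 member values and turned none. Members higher were 3 to 6 at 60 min (3 without control 0 min replicate 2 or heat 60 min replicate 2) and 1 to 4 at 120 min (2 without control 120 min replicate 1, 1 without heat 120 min replicate 3). Calls between successive heat times were 1 to 7 (60 to 120 min; 3 without heat 60 min replicate 2, 1 without its replicate 3), 5 to 9 (120 to 240 min; 5 without heat 240 min replicate 1 or 3) and 0 to 1 (240 to 360 min). The difference of heat effects was called in 3 to 5 members (5 without heat 120 min replicate 1). Dim members near background limit what can be said of RPC53, RPC34, RRN11, RRN10, TFC8 and UAF30.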

Other observations

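Other products of polymerase III were also on the array, and were chosen after their values were seen. RPR1, the RNA of RNase P, rose by 0.36 ± 0.13 at 10 min and had a log2 fold of -0.57 at 360 min. SNR6, the U6 spliceosomal RNA, rose by 0.49 ± 0.15 at 10 min, and at 360 min had 233, 298 and 261 in heat, against 961, 739 and 613 in control at 240 min, a log2 fold of -1.21 ± 0.15 (adjusted p = 2.60e-07). Over 92 probe sets for transfer RNAs, many of which share sequence, the median log2 deposited intensity was 9.22, 9.42 and 8.99 on the heat arrays at 10 min and 8.32, 8.41 and 8.31 at 60 min, against 9.25, 9.41 and 9.65 in control at 0 min. At 120 min it was 8.08, 7.88 and 7.57 in heat, against 9.91, 9.24 and 9.83 in control. The median hides moves in both directions. At 10 min the probe set of YNCJ0015W had 3615, 5388 and 3870, against 1109, 1342 and 1483 in control at 0 min. That of YNCG0028W had 293, 381 and 225, against 460, 455 and 591. Late falls were not limited to polymerase III products. RDN25-1, a ribosomal RNA made by polymerase I, was also chosen after its values were seen. At 60 min its brightest probe set had 465, 796 and 320, against 3664, 2307 and 3553 in control at 0 min. At 360 min it had 3501, 388 and 674, against 5896, 4375 and 3418 in control at 240 min. Whether the labelled cRNA reports the amounts of these RNAs was not tested.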
